A study of Homo sapiens with 60 samples.

Results

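The astrocyte-derived human cell line 1321N1 was treated with arsenic (2.55 µM sodium metaarsenite), cadmium (2.3 µM cadmium chloride) or mercury (20 µM mercury chloride), or left non-treated, and RNA was taken at 5 times, namely 1.5, 3 and 6 h and later 12 h and 24 h. Each metal and time was represented by 3 libraries, which makes 20 groups and 60 libraries in all. Each metal was given at a single dose, and the doses differ, so metal and dose cannot be told apart in comparisons between metals. The paper describes these doses as equitoxic, as judged by cell death. The submitters describe the triplicates as technical, so the p values measure the spread between these libraries and may not cover that between independent cultures. Described here are 9 genes of selective autophagy and ubiquitin supply, chosen by name from the 62703 genes of the count table: the cargo receptors SQSTM1, NBR1, TAX1BP1 and OPTN, the autophagosome membrane proteins GABARAPL1 and MAP1LC3B, the early autophagy proteins WIPI1 and ULK1, and the ubiquitin precursor UBB. These members, and the gene lists used below, were chosen with earlier results of these data known. Counts of them beside the shares of all genes are therefore a description only. Each name matched 1 row, and the filter on low counts, which asks for about 10 counts in at least 3 libraries and left 12341 genes to test, kept all 9. Of these, 8 pass it on the non-treated libraries alone, whereas GABARAPL1 reached the minimum in 1 of 15 non-treated and 22 of 45 metal libraries and so was kept through the groups where it is high.

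In autophagy, a membrane closes around part of the cytoplasm and delivers it to the lysosome. The kinase ULK1 starts the process, WIPI1 binds the phospholipid PI3P on the forming membrane, and ubiquitin-like proteins of the Atg8 family, such as MAP1LC3B and GABARAPL1, are attached to that membrane. Cargo that carries ubiquitin is brought in by receptors that bind both ubiquitin and Atg8 proteins, of which SQSTM1 (also called p62) is the best known. SQSTM1 is itself degraded with the cargo, and it also binds KEAP1, the inhibitor of the transcription factor NRF2. Ubiquitin is made as a fused precursor, and UBB is a gene that encodes such a precursor.

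Reads came from the 3′ ends of transcripts, so longer genes did not gather more reads for their length. Total counts were between 2215276 and 4404609 per library, and levels are given as CPM (counts scaled to a common TMM-normalized library size). VIM and CD44, which astrocytes and many cultured cells express, were high in all libraries, at 3014 to 5782 and 223.1 to 499.1 CPM. NES, a further glial marker examined, was low, with 1 to 25 counts (0.33 to 7.71 CPM). The 6 astrocyte markers examined were absent or low, with 0 counts of AQP4 and ALDH1L1 and at most 1 count of S100B, 3 of GFAP, 5 of SLC1A2 and 13 of SLC1A3 (0 to 4.09 CPM) in any library. The markers of leukocytes, neurons, epithelium and endothelium that were examined had at most 7 counts in any library. Mitochondrial transcripts took 3.83% to 7.94% of counts in 58 libraries, 1.35% in cadmium 6 h replicate 1 and 1.91% in arsenic 3 h replicate 2. Of the comparisons that hold either of these 2 libraries, only cadmium against mercury at 6 h had called members, and the values without the library are given with that comparison.

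Treated libraries were set against time-matched non-treated ones to ask when these transcripts change. A gene was called at an adjusted p under 0.05 in the edgeR quasi-likelihood test, and LFC is the log2 fold change. With mercury, 0 of the 9 genes were called higher at 1.5 h, 2 at 3 h (SQSTM1 and MAP1LC3B), 5 at 6 h, 5 at 12 h and 7 at 24 h. Among all tested genes, the share called higher with mercury was 0.478%, 1.39%, 4.49%, 8.89% and 13.9% at these times. With arsenic, 0 members were called at 1.5, 3 and 6 h, where 0.0648%, 0.122% and 0.608% of all genes were called higher. Arsenic had 4 members higher at 12 h, against 2.37% of all genes, and 7 at 24 h, against 6.54%. With cadmium, 0 members were called at 1.5, 3 and 6 h, where 0%, 0.203% and 1.6% of all genes were higher. Cadmium had 5 members higher at 12 h, against 5.19% of all genes, and 3 at 24 h, against 1.56%.

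A single call was in the lower direction, OPTN with 24 h of mercury, where 13.9% of all genes were lower. No member was lower with arsenic or cadmium at 24 h, where 7.75% and 0.632% of all genes were lower. In the comparisons without a call, the members with an unadjusted p under 0.05 numbered 1, 2 and 3 with arsenic and 2, 4 and 2 with cadmium at 1.5, 3 and 6 h, and 1 with mercury at 1.5 h. DESeq2 called UBB with 6 h of arsenic and no other member in these 7 comparisons. Without GABARAPL1, which the filter kept through metal libraries, arsenic and mercury each had 6 of 8 members higher at 24 h, and cadmium had 2. At 12 h, each metal had 4 of these 8 higher, as did mercury at 6 h. The median LFC of these 8 at 24 h was 0.63 (arsenic), 0.23 (cadmium) and, for mercury, 0.66, against 0.00, -0.01 and -0.02 over all tested genes.

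**Figure D1:**
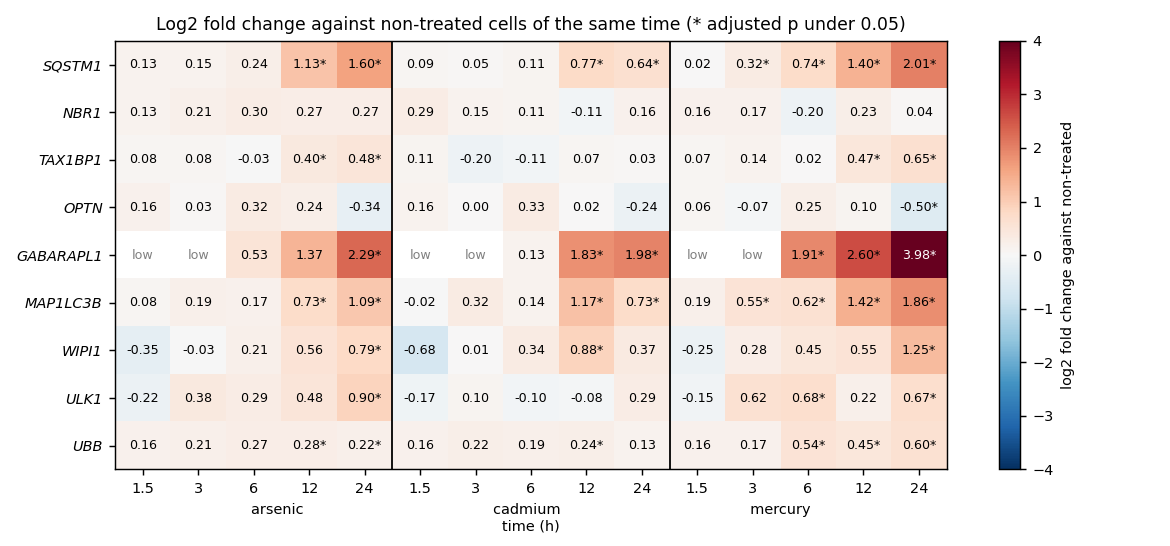
Heat map of the LFC of each of the 9 genes (rows) against non-treated cells of the same time, for 3 metals and 5 times (columns), with the value in each cell and an asterisk at an adjusted p under 0.05. Cells marked low are those of GABARAPL1 at 1.5 and 3 h, where non-treated libraries had at most 3 counts. Red, for higher, fills the 12 and 24 h columns of SQSTM1, GABARAPL1 and MAP1LC3B with each metal, starting at 3 or 6 h with mercury.

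To show the DNA before the transcription starts of the members, the 1000 bases before the start of the canonical transcript were searched on both strands in GRCh38 with GENCODE 44. The letters searched were TGACNNNGC (antioxidant response element), CACGTG (E-box core), the CLEAR motif of lysosomal genes, which TFEB binds, TGATGNAA (amino acid response element) and TGACGTCA (cAMP response element, added after the sequences had been seen). The antioxidant element was found before 3 of the 9 genes, SQSTM1, MAP1LC3B and WIPI1, and before 32.6% of 19962 protein-coding genes. The E-box core stood before WIPI1 alone of the 9 and before 18.5% of all, and the cAMP element before GABARAPL1 alone of the 9 and 3.37% of all. The CLEAR motif and the amino acid element were before none of the 9 and before 0.666% and 11.4% of all, and the heat-shock element was before none of the 9 and 1.41% of all. Only exact matches were counted, and so few genes hold the CLEAR or heat-shock letters that none of 9 does not set these genes apart. The stretches that hold these letters are printed here in the direction of transcription, with the matched letters in capitals, because these 4 genes hold a match and were each called higher with all 3 metals at 12 or 24 h. UBB was also called with all 3 but held none of the matches. They lie at chr5:179820505-179820604 (plus strand) for SQSTM1, chr16:87392280-87392309 (plus) for MAP1LC3B, chr17:68457797-68457896 (minus) for WIPI1 and chr12:10212836-10212865 (plus) for GABARAPL1. Although they stand before the start of the canonical transcript, the MAP1LC3B and GABARAPL1 stretches lie within exons of other annotated transcripts of the same genes over all 30 of their bases, whereas those of SQSTM1 and WIPI1 hold 0 exonic bases of their genes. Capitals mark the antioxidant element for SQSTM1 and MAP1LC3B, the E-box core for WIPI1 and the cAMP element for GABARAPL1. The antioxidant match of WIPI1, at -971 to -963 from the start, lies outside the printed stretch and is not shown. A match of letters is a description and not evidence of binding.
SQSTM1: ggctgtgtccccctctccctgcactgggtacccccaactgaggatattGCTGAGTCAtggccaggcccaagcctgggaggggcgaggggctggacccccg
MAP1LC3B: gcgagtcaccTGACCAGGCtgcgggctgag
WIPI1: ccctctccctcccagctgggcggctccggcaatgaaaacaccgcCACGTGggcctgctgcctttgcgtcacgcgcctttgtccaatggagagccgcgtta
GABARAPL1: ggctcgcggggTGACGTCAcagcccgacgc

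SQSTM1, on chromosome 5 of GRCh38 from 179806398 to 179838078, rose with all 3 metals at 12 and 24 h. Its level in non-treated cells lay between 255.1 and 317.9 CPM over all 15 libraries and 5 times. After 24 h, the non-treated libraries had 314.2, 307.4 and 255.1 CPM, the cadmium libraries 435.0, 409.2 and 526.7, the arsenic libraries 905.1, 898.9 and 855.0, and the mercury libraries 1177, 1230 and 1133. The 4 groups did not overlap at this time. The LFC at 24 h was 2.01 with mercury (a fold of 4.04, standard error, SE, 0.091, adjusted p = 1.11e-28), 1.60 with arsenic (a fold of 3.03, SE 0.09, adjusted p = 2.75e-23) and 0.64 with cadmium (a fold of 1.56, SE 0.09, adjusted p = 3.33e-07).

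The metals differed in when SQSTM1 first rose. With mercury, the libraries had 370.5, 345.4 and 380.3 CPM at 3 h, then 505.7, 551.2 and 478.8 at 6 h and finally 705.9, 753.9 and 850.4 at 12 h, and these groups lay above non-treated cells of the same time without overlap. The LFC was 0.32 at 3 h (adjusted p = 0.0457), 0.74 at 6 h (adjusted p = 2.32e-09) and 1.40 at 12 h (adjusted p = 9.02e-21). Arsenic gave 0.24 at 6 h (adjusted p = 0.307) and then 1.13 at 12 h (adjusted p = 5.67e-16), with 676.7, 639.8 and 599.8 CPM at 12 h. Cadmium gave 0.11 at 6 h (adjusted p = 0.668) and 0.77 at 12 h (adjusted p = 7.66e-10), with 473.6, 508.1 and 506.3 CPM at 12 h. The 3 h value with mercury lost its call without any 1 of the 6 libraries compared, with an LFC of 0.27 to 0.36 and an adjusted p of 0.0603 to 0.315, and with RLE normalization (adjusted p = 0.055). That call was also lost with no filter on low counts (adjusted p = 0.136) and with a stricter filter (adjusted p = 0.0513). The other 7 calls of SQSTM1 against non-treated cells were held in every fit that left out a library.

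**Figure D2:**
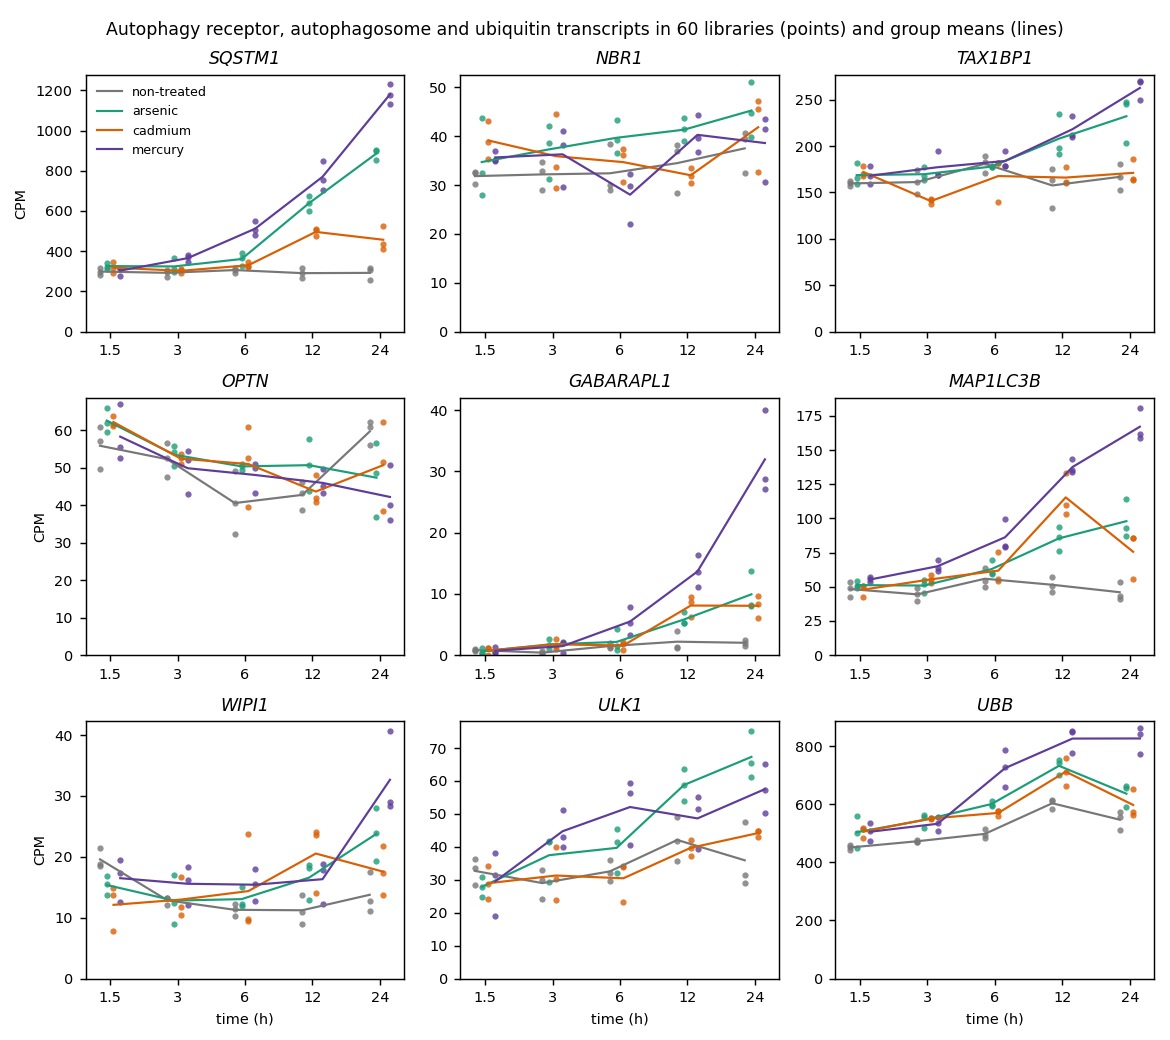
Level of the 9 genes in CPM (y axes, starting at 0, each gene on its own scale) against time in h (x axes, 5 evenly spaced times) in non-treated, arsenic, cadmium and mercury cells, with a point for each of 60 libraries and lines through the group means of 3. The mercury line of SQSTM1 climbs to 1180 CPM at 24 h while the non-treated line stays between 290.9 and 306.2.

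Of the other cargo receptors, TAX1BP1 rose with arsenic and mercury, OPTN fell with mercury at 24 h, and NBR1 was not called. TAX1BP1, a receptor for protein aggregates and damaged organelles, lies on chromosome 7 from 27739331 to 27844564. At 24 h, it had 181.1, 166.6 and 152.9 CPM in non-treated libraries, 245.5, 203.7 and 247.4 with arsenic, 270.3, 249.2 and 268.6 with mercury, and 163.6, 164.1 and 185.8 with cadmium. The arsenic and mercury libraries lay above the non-treated ones, whereas the cadmium libraries overlapped them. The LFC of TAX1BP1 was 0.48 at 24 h (SE 0.095, adjusted p = 0.000156) and 0.40 at 12 h (adjusted p = 0.00483) with arsenic, whereas it was 0.65 at 24 h (SE 0.095, adjusted p = 9.69e-08) and 0.47 at 12 h (adjusted p = 0.000195) with mercury. With cadmium, it was 0.07 at 12 h (adjusted p = 0.733) and 0.03 at 24 h (adjusted p = 0.941). The arsenic call at 12 h was lost without arsenic replicate 1 (LFC 0.30, adjusted p = 0.116) or non-treated replicate 2 (LFC 0.295, adjusted p = 0.126).

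OPTN, a receptor for mitochondria and bacteria marked with ubiquitin, lies on chromosome 10 from 13099449 to 13138308. It had 60.78, 62.1 and 55.97 CPM in non-treated cells at 24 h and 39.97, 35.95 and 50.55 with mercury, without overlap. The LFC was -0.50 (SE 0.151, adjusted p = 0.0083), and it was -0.39 (adjusted p = 0.0882) without mercury replicate 2. With arsenic and cadmium at 24 h, the LFC was -0.34 (adjusted p = 0.124) and -0.24 (adjusted p = 0.526), and the libraries overlapped the non-treated ones. Without arsenic replicate 1, the arsenic value became -0.48 (adjusted p = 0.0467). The non-treated level of OPTN was itself uneven, with group means of 40.53 ± 8.4 CPM (SD, n = 3) at 6 h, 42.71 ± 3.72 at 12 h and 59.62 ± 3.23 at 24 h.

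NBR1, a receptor related to SQSTM1 on chromosome 17 from 43170481 to 43211689, stayed between 22.07 and 51.18 CPM in all 60 libraries. Its LFC over the 15 comparisons lay between -0.20 with 6 h of mercury (adjusted p = 0.59) and 0.30 with 6 h of arsenic (adjusted p = 0.616), each with a SE of 0.164 to 0.176. With a mean of 120 counts per library and a SE of this size, no such change was called, and changes this small could be missed.

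Both Atg8 family members rose at 12 and 24 h with cadmium and mercury. GABARAPL1, on chromosome 12 from 10212458 to 10223128, was close to the detection floor in non-treated cells, with 2 to 3 counts per library at 1.5 h, 1 to 2 at 3 h, 3 to 5 at 6 h, then 5, 4 and 15 at 12 h, with 6, 8 and 7 at 24 h. After 24 h, it reached 86, 93 and 121 counts with mercury, 41, 28 and 27 with arsenic, and 27, 29 and 27 with cadmium. Every metal library at 24 h thus held at least 27 counts, against at most 8 in the non-treated ones. The LFC at 24 h was 3.98 with mercury (a fold of 15.8, SE 0.446, adjusted p = 5.26e-11), 2.29 with arsenic (a fold of 4.89, SE 0.466, adjusted p = 0.000206) and 1.98 with cadmium (a fold of 3.94, SE 0.472, adjusted p = 0.00848). These folds stand over a near-floor control, and the filter kept the gene through its metal libraries. With no filter on low counts, so that the gene was not chosen by its level, the LFC was 3.99 (adjusted p = 1.57e-17), 2.28 (adjusted p = 5.43e-05) and 1.98 (adjusted p = 0.00544) in the same order.

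Earlier, GABARAPL1 was called higher with mercury at 6 h (LFC 1.91, adjusted p = 0.0151) and 12 h (LFC 2.599, adjusted p = 9.97e-06) and with cadmium at 12 h (LFC 1.83, adjusted p = 0.00667). The counts were 11, 18 and 32 with mercury at 6 h, 27, 42 and 51 with mercury at 12 h, and 19, 19 and 27 with cadmium at 12 h. With arsenic at 12 h, there were 25, 18 and 20 counts and an LFC of 1.37 (adjusted p = 0.0931), which became 2.11 (adjusted p = 0.0243) without non-treated replicate 3, the library with 15 counts. At such low counts, several calls were lost when 1 library was left out. The cadmium call at 12 h was lost without non-treated replicate 1 (adjusted p = 0.0673) or 2 (adjusted p = 0.0511), that at 24 h without non-treated replicate 1 (adjusted p = 0.0784), and the mercury call at 6 h without mercury replicate 3 (adjusted p = 0.106) or non-treated replicate 2 (adjusted p = 0.0765) or 3 (adjusted p = 0.0759). The cadmium call at 24 h was also lost in a fit of only the 6 libraries compared (LFC 1.99, adjusted p = 0.0577).

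MAP1LC3B encodes LC3B, the most used protein marker of autophagosomes, and lies on chromosome 16 from 87383953 to 87404779. At 24 h, it had 40.95, 43.34 and 53.67 CPM in non-treated cells, 87.3, 92.61 and 114.0 with arsenic, 85.46, 85.9 and 55.33 with cadmium, and 158.6, 181.0 and 161.6 with mercury. All metal libraries lay above the non-treated ones, with cadmium replicate 3 nearest to them. The LFC was 1.86 with mercury (a fold of 3.63, SE 0.136, adjusted p = 2.23e-18), 1.09 with arsenic (a fold of 2.13, SE 0.138, adjusted p = 4.21e-09) and 0.73 with cadmium (a fold of 1.66, SE 0.139, adjusted p = 0.000334).

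At 12 h, the order was different, and cadmium stood at 109.8, 102.9 and 133.4 CPM against 86.31, 75.92 and 93.91 with arsenic, 143.2, 135.7 and 133.8 with mercury, and 57.33, 50.64 and 46.36 in non-treated cells. The LFC of MAP1LC3B was 1.17 under cadmium (adjusted p = 8.4e-10), 1.42 under mercury (adjusted p = 2.7e-13) and 0.73 under arsenic (adjusted p = 0.000118). MAP1LC3B under mercury was already higher at 3 h (LFC 0.55, adjusted p = 0.0219) and 6 h (LFC 0.62, adjusted p = 0.00108). The 3 h call was lost without mercury replicate 2 or 3 or non-treated replicate 1 or 2, with an LFC of 0.46 to 0.56 and an adjusted p of 0.0702 to 0.267. In a fit of only the 6 libraries compared, the cadmium call at 24 h was lost (LFC 0.73, adjusted p = 0.141).

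Of the early autophagy genes, both were higher with arsenic and mercury at 24 h, by less than the Atg8 genes. WIPI1 lies on the minus strand of chromosome 17 from 68420948 to 68457513. It had 11.07, 17.52 and 12.7 CPM in non-treated cells at 24 h, 28.95, 40.6 and 28.42 with mercury, 28.1, 19.39 and 23.86 with arsenic, and 17.27, 21.76 and 13.65 with cadmium. The LFC at 24 h was 1.25 with mercury (SE 0.252, adjusted p = 7.18e-05), 0.79 with arsenic (SE 0.257, adjusted p = 0.027) and 0.37 with cadmium (SE 0.262, adjusted p = 0.619). The cadmium libraries overlapped the non-treated ones, whereas those of the other metals did not. At 12 h, cadmium had 14.06, 24.03 and 23.53 CPM against 13.7, 8.956 and 11.0 in non-treated cells (LFC 0.88, adjusted p = 0.0273). Both the arsenic call at 24 h and the cadmium call at 12 h were lost in 4 of the 6 fits that left out a library, namely without arsenic replicate 1 or 3 or non-treated replicate 1 or 3 (LFC 0.655 to 0.787, adjusted p = 0.0598 to 0.152) and without cadmium replicate 2 or 3 or non-treated replicate 2 or 3 (LFC 0.756 to 0.865, adjusted p = 0.0801 to 0.152). The non-treated level of WIPI1 was highest at 1.5 h, at 18.79, 18.48 and 21.49 CPM.

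ULK1, on chromosome 12 from 131894622 to 131923150, was higher with arsenic at 24 h and with mercury at 6 and 24 h. At 24 h, it had 47.39, 28.9 and 31.45 CPM in non-treated cells, 75.26, 65.41 and 61.26 with arsenic, 57.28, 50.2 and 65.09 with mercury, and 42.96, 44.67 and 44.91 with cadmium. The LFC was 0.90 with arsenic (SE 0.183, adjusted p = 0.00022), 0.67 with mercury (SE 0.185, adjusted p = 0.00406) and 0.29 with cadmium (SE 0.187, adjusted p = 0.563). At 6 h of mercury, it had 59.41, 56.34 and 40.52 CPM against 35.91, 29.61 and 32.11 (LFC 0.68, adjusted p = 0.0162). That call was lost in 4 of 6 fits, without mercury replicate 1 or 2 or non-treated replicate 2 or 3, with an LFC of 0.585 to 0.671 and an adjusted p of 0.0604 to 0.0995. At 12 h, the LFC with mercury was 0.22 (adjusted p = 0.482), and the libraries overlapped the non-treated ones.

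UBB, a gene of tandem ubiquitin repeats on chromosome 17 from 16380798 to 16382745, rose by small amounts. It had 484.0, 495.7 and 514.0 CPM in non-treated cells at 6 h and 726.9, 785.9 and 659.5 with mercury, an LFC of 0.54 (SE 0.076, adjusted p = 1.55e-07). At 24 h, it had 574.1, 554.6 and 511.6 CPM in non-treated cells, 772.6, 842.6 and 863.7 with mercury, 662.3, 654.1 and 592.0 with arsenic, and 564.3, 574.1 and 653.9 with cadmium. The mercury libraries stood clearly apart, the arsenic ones by a narrow gap, and the cadmium ones overlapped the non-treated level. The LFC of UBB at 12 and 24 h was 0.45 (adjusted p = 4.26e-06) and 0.60 (adjusted p = 2.34e-09) with mercury, 0.28 (adjusted p = 0.0158) and 0.22 (adjusted p = 0.0402) with arsenic, and 0.24 (adjusted p = 0.0339) and 0.13 (adjusted p = 0.515) with cadmium.

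The 3 calls of UBB with arsenic and cadmium were fragile. The arsenic call at 12 h was lost without arsenic replicate 1 or 2 or non-treated replicate 2, that at 24 h without arsenic replicate 1 or 2 or non-treated replicate 2 or 3, and the cadmium call at 12 h without cadmium replicate 2 or 3 or any 1 of the non-treated replicates, with an LFC of 0.182 to 0.263 and an adjusted p of 0.0641 to 0.218. With no filter on low counts, their adjusted p was 0.0978, 0.215 and 0.209. In fits of only the 6 libraries compared, it was 0.0774, 0.113 and 0.0739. Over the final 400 bases of the UBB transcript, 40.7% of all 50-base words also occur in the pseudogenes UBBP4 and UBBP1, so reads from these cannot be told apart from those of UBB over that part.

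The metals were then compared directly at each time, without the non-treated libraries, at the doses given above. At 1.5 and 3 h, no member was called in any of the 6 comparisons, in which 0% and 0.138% (arsenic against cadmium), 1.56% and 1.89% (arsenic against mercury) and 0.656% and 1.78% (cadmium against mercury) of all genes were called. The members with an unadjusted p under 0.05 numbered 0 and 1, 0 and 1, and 0 and 3 in the same order, and DESeq2 called 1 member, TAX1BP1 in cadmium against mercury at 3 h (LFC -0.33, adjusted p = 0.0225). At 6 h, no member differed between arsenic and cadmium (1.18% of all genes), with 1 member at an unadjusted p under 0.05 and 0 called by DESeq2. At that time, 3 members were higher with mercury than with arsenic (SQSTM1, MAP1LC3B and UBB, 4.48% of all genes) and 5 higher with mercury than with cadmium (SQSTM1, GABARAPL1, MAP1LC3B, ULK1 and UBB, 3.78% of all genes). Without GABARAPL1, which the filter kept through metal libraries, 4 of 8 members were higher with mercury than with cadmium. NBR1 between arsenic and mercury at 6 h (LFC 0.50, adjusted p = 0.0742) was called higher with arsenic by DESeq2 (adjusted p = 0.0427), with the stricter filter (adjusted p = 0.0475) and without mercury replicate 3 (LFC 0.61, adjusted p = 0.0446). GABARAPL1 there (LFC -1.38, adjusted p = 0.0892) was called lower with arsenic without arsenic replicate 1 (LFC -2.28, adjusted p = 0.0176).

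At 12 h, SQSTM1 was higher with arsenic than with cadmium (LFC 0.36, adjusted p = 0.00467), as was TAX1BP1 (LFC 0.32, adjusted p = 0.0298), whereas MAP1LC3B was lower (LFC -0.43, adjusted p = 0.0337). These 3 members compare with 5.77% of all genes. ULK1 was not called in that comparison (LFC 0.56, adjusted p = 0.058), but was higher with arsenic by DESeq2 (adjusted p = 0.044), with no filter (adjusted p = 0.0328) and with the stricter filter (adjusted p = 0.0458). Between arsenic and mercury, SQSTM1, GABARAPL1 and MAP1LC3B were lower with arsenic (6.84% of all genes), with an LFC of -0.27 (adjusted p = 0.0454), -1.23 (adjusted p = 0.0456) and -0.69 (adjusted p = 0.000141). Without GABARAPL1, 2 of 8 members were called in that comparison, and DESeq2 gave GABARAPL1 no adjusted p in it. Between cadmium and mercury, SQSTM1 and TAX1BP1 were lower with cadmium (3.29% of all genes), with an LFC of -0.63 (adjusted p = 4.62e-07) and -0.39 (adjusted p = 0.00832). MAP1LC3B was not called in that comparison (LFC -0.25, adjusted p = 0.376), in which cadmium libraries lay at 102.9 to 133.4 CPM and mercury libraries at 133.8 to 143.2. UBB (LFC -0.21, adjusted p = 0.117) was called there by DESeq2 (adjusted p = 0.034).

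At 24 h, the order of SQSTM1 was mercury, arsenic, cadmium and non-treated, and each neighbour differed from the next. SQSTM1 was higher with arsenic than with cadmium by an LFC of 0.96 (SE 0.088, adjusted p = 1.72e-13), and lower with arsenic than with mercury (LFC -0.41, SE 0.087, adjusted p = 0.000429). MAP1LC3B and GABARAPL1 were highest with mercury, and lower with arsenic than with mercury (LFC -0.77, adjusted p = 7.6e-06, and LFC -1.69, adjusted p = 0.000834). Arsenic and cadmium did not differ past the threshold in MAP1LC3B (LFC 0.36, SE 0.132, adjusted p = 0.0654) or GABARAPL1 (LFC 0.31, SE 0.395, adjusted p = 0.692), although without cadmium replicate 1 or 2 the MAP1LC3B difference was 0.462 and was called (adjusted p = 0.0416 and 0.0354). TAX1BP1 (LFC 0.44, adjusted p = 0.000611) and ULK1 (LFC 0.61, adjusted p = 0.0194) were higher with arsenic than with cadmium, and UBB was lower with arsenic than with mercury (LFC -0.38, adjusted p = 0.000202). Called members at 24 h were 3 between arsenic and cadmium (10.2% of all genes), 4 between arsenic and mercury (11.4%) and, for cadmium against mercury, 6 (20%), the latter being SQSTM1, TAX1BP1, GABARAPL1, MAP1LC3B, WIPI1 and UBB, all lower with cadmium. Without GABARAPL1, 3 of 8 members were called between arsenic and mercury and 5 of 8 between cadmium and mercury.

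**Figure D3:**
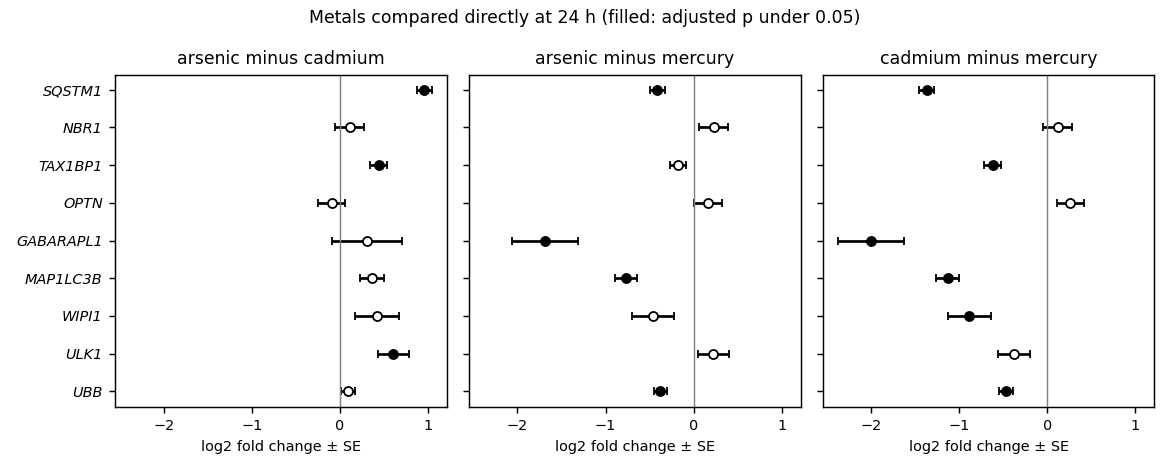
LFC between metals at 24 h (x axes, the same range in the 3 panels, bars for the SE) for the 9 genes (y axis), with filled points at an adjusted p under 0.05. In the panel of cadmium against mercury, 6 genes lie filled on the negative side, with GABARAPL1 farthest at -2.00, whereas NBR1 and OPTN lie open at 0.12 and 0.26.

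Several of the direct calls were lost when 1 library was left out, some of them whichever library it was. Of the 12 h calls, SQSTM1 and GABARAPL1 between arsenic and mercury were lost in 5 and 6 of 6 fits (SQSTM1 held only without mercury replicate 1), with an adjusted p of 0.0556 to 0.263 and 0.0502 to 0.169. TAX1BP1 and MAP1LC3B between arsenic and cadmium at 12 h were lost in 3 and 4 fits, without arsenic replicate 1 or cadmium replicate 1 or 2 for TAX1BP1 (adjusted p = 0.0856 to 0.288) and without arsenic replicate 1 or 2 or cadmium replicate 1 or 3 for MAP1LC3B (adjusted p = 0.0516 to 0.297). TAX1BP1 between cadmium and mercury at 12 h was lost without cadmium replicate 2 (adjusted p = 0.0628) or mercury replicate 3 (adjusted p = 0.0697). Between arsenic and mercury at 6 h, MAP1LC3B was lost without arsenic replicate 1 or 2 or mercury replicate 3 (adjusted p = 0.118 to 0.184), and UBB without any 1 library but mercury replicate 3 (adjusted p = 0.0504 to 0.193). Between cadmium and mercury at 6 h, MAP1LC3B was lost without cadmium replicate 1 or 3 or mercury replicate 3 (adjusted p = 0.131 to 0.172), ULK1 without cadmium replicate 1 or mercury replicate 1 or 2 (adjusted p = 0.058 to 0.118), and GABARAPL1 without any 1 library but mercury replicate 1 (adjusted p = 0.06 to 0.166). Cadmium 6 h replicate 1 is the library with 1.35% mitochondrial counts. Without it, the LFC at 6 h was -0.68 for SQSTM1 (adjusted p = 3.59e-06) and -0.34 for UBB (adjusted p = 0.0133), which kept their calls, and -0.41 for MAP1LC3B (adjusted p = 0.172), -1.89 for GABARAPL1 (adjusted p = 0.0967) and -0.62 for ULK1 (adjusted p = 0.118), which lost them. At 24 h, losses were limited to ULK1 between arsenic and cadmium, without arsenic replicate 1 (adjusted p = 0.105) or cadmium replicate 1 (adjusted p = 0.0654), and WIPI1 between cadmium and mercury, without cadmium replicate 3 (adjusted p = 0.0507) or mercury replicate 2 (adjusted p = 0.0705). With all libraries but no filter on low counts, SQSTM1 and GABARAPL1 between arsenic and mercury at 12 h were also lost (adjusted p = 0.112 and 0.0587). So were TAX1BP1 and MAP1LC3B between arsenic and cadmium at 12 h (adjusted p = 0.083 and 0.0657), and UBB between arsenic and mercury at 6 h (adjusted p = 0.0822).

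Whether an effect grew or receded was tested as the difference between the LFC at 24 h and at 12 h. SQSTM1 was the only member called, and its LFC grew by 0.61 with mercury (SE 0.125, adjusted p = 0.0054, 0.624% of all genes called) and by 0.47 with arsenic (SE 0.125, adjusted p = 0.0363, 1.57% of all genes). The arsenic value was lost in 6 of 12 fits, without arsenic 12 h replicate 2 or 3, arsenic 24 h replicate 1 or 2, non-treated 12 h replicate 1 or non-treated 24 h replicate 3, with a value of 0.392 to 0.476 and an adjusted p of 0.0624 to 0.118. With cadmium, no member was called (0.381% of all genes), 1 had an unadjusted p under 0.05, DESeq2 called 0, and the difference was -0.13 for SQSTM1 (adjusted p = 0.799) and -0.44 for MAP1LC3B (adjusted p = 0.415). The lower count of cadmium calls at 24 h than at 12 h thus came without a called difference for any member.

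Non-treated cells were compared with those at 1.5 h to follow the control level. No member was called at 3 and 6 h (0.122% and 0.486% of all genes), where 1 and 2 members had an unadjusted p under 0.05 and DESeq2 called 0. UBB was the only member called at 12 h (4.09% of all genes) and 24 h (3.29%), with 441.1, 460.6 and 451.3 CPM at 1.5 h and 610.0, 585.2 and 614.7 at 12 h. Its LFC was 0.42 at 12 h (adjusted p = 0.000282) and 0.28 at 24 h (adjusted p = 0.0247), beside an LFC of 0.28 with arsenic and 0.24 with cadmium against non-treated cells at 12 h. The 24 h call was lost in 5 of 6 fits, all but that without non-treated 24 h replicate 3, with an adjusted p of 0.0784 to 0.177. WIPI1 at 12 h (LFC -0.79, adjusted p = 0.0802) was called lower by DESeq2 (LFC -0.80, adjusted p = 0.0386). SQSTM1 was not called, with an LFC between -0.04 and 0.04 at the 4 later times.

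To place the 9 members in the pathway, 87 other genes in 7 lists were counted. Unless another time is given, the list counts are those at 24 h. With mercury, 31 were higher and 4 lower, with arsenic 19 and 2, and with cadmium 3 and 1, and the median LFC was 0.24, 0.15 and 0.05. Among all tested genes at 24 h, 13.9% were higher and 13.9% lower with mercury, 6.54% and 7.75% with arsenic, and 1.56% and 0.632% with cadmium. At 12 h, 13 of the 87 were higher and 1 lower with cadmium, 6 and 0 with arsenic, and 21 and 2 with mercury. Of 12341 tested genes, 5.19%, 2.37% and 8.89% were higher at 12 h in that order, and 369, 215 and 883 genes lower. The cadmium calls at 12 h held 3 of 16 cargo receptors and 2 of 18 genes of initiation and nucleation, all higher. Of 20 genes of fusion and the lysosome, 3 were higher and 1 lower with cadmium at 12 h. Of the 87, MAP1LC3A and TFEB passed the filter through metal libraries, and neither was called at 24 h. They were not taken out of the 12 h counts. The 20 tested genes of fusion and the lysosome had 9 higher and 1 lower with mercury, 6 higher with arsenic and 0 called with cadmium, beside 13.9%, 6.54% and 1.56% of all genes called higher. With so few cadmium calls over all genes, 0 of 20 is near that share. Among them, GLA, the lysosomal alpha-galactosidase, had an LFC of 2.58 with mercury (adjusted p = 1.14e-08) and 1.98 with arsenic (adjusted p = 2.2e-05), CTSL, the protease cathepsin L, had 1.18 and 1.10 (adjusted p = 3.31e-09 and 5.63e-08), and ATP6V1B2, a subunit of the proton pump, had 0.90 with mercury (adjusted p = 4.92e-09). TECPR1 was the gene that fell with mercury (LFC -0.65, adjusted p = 0.0336), which was named after its value was seen.

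Of 16 other cargo receptors, 4 were higher and 1 lower with mercury, 3 higher and 1 lower with arsenic, and 0 called with cadmium at 24 h. The shares over all genes were 13.9%, 6.54% and 1.56% higher and 13.9%, 7.75% and 0.632% lower with mercury, arsenic and cadmium, so the single lower calls and the absence of cadmium calls are near or below them. CALCOCO2 (also called NDP52), which like TAX1BP1 and OPTN binds ubiquitin on bacteria and mitochondria, had 28.22 ± 3.72 CPM (SD, n = 3) without treatment, 60.58 ± 7.9 with arsenic and 66.37 ± 9.5 with mercury, an LFC of 1.10 (adjusted p = 2.03e-07) and 1.23 (adjusted p = 4.31e-09). BNIP3L, a receptor in the mitochondrial membrane, was higher with both (LFC 0.61, adjusted p = 0.000842, and LFC 0.56, adjusted p = 0.00114). CCPG1, a receptor of the endoplasmic reticulum, was higher with arsenic (LFC 1.11, adjusted p = 0.00741). With mercury, BNIP3 and RTN3 were the others higher, and PHB2 was the receptor that was lower with both metals (LFC -0.27 with arsenic and -0.26 with mercury), all 3 named after their values were seen.

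Of 18 tested genes of initiation and nucleation, 5 were higher with mercury, 3 with arsenic and 0 with cadmium, against 13.9%, 6.54% and 1.56% of all genes, and 0 were lower. ATG13, a subunit of the ULK1 complex, had an LFC of 0.83 with arsenic (adjusted p = 0.000222) and 0.60 with mercury (adjusted p = 0.00547), WDR45, a relative of WIPI1, had 0.81 (adjusted p = 0.00391) and 0.69 (adjusted p = 0.00948), and ATG14 had 0.75 with mercury (adjusted p = 7.17e-05). RB1CC1, another subunit of the ULK1 complex, was higher with both metals, and WIPI2 with mercury, both named after their values were seen. Of 10 genes that attach Atg8 proteins to lipid, 3 were higher with mercury (ATG12, ATG5 and ATG3, LFC 0.60, 0.57 and 0.35) and 1 with arsenic (ATG12, LFC 0.40), beside the same shares of 13.9% and 6.54%, the latter of which 1 of 10 is near.

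Of the 3 other tested Atg8 genes, 2 were higher with mercury, 1 with arsenic and 0 with cadmium, and 0 were lower. Among all genes, 13.9%, 6.54% and 1.56% were higher, the last of which 0 of 3 is near. GABARAPL2 was higher with mercury (LFC 0.35, adjusted p = 0.0122). MAP1LC3B2 was higher with mercury (LFC 2.16, adjusted p = 0.00132) and arsenic (LFC 1.56, adjusted p = 0.0446), but at 25 to 33 and 13 to 23 counts, and 42.5% of the 50-base stretches at the end of its transcript also occur in MAP1LC3B, so it is uncertain. Of 8 genes of ubiquitin activation and recycling, UCHL1, which frees ubiquitin from small adducts, had 336.3 ± 15.4 CPM (SD, n = 3) without treatment at 24 h, 413 ± 33.8 with cadmium, 610.3 ± 64.2 with arsenic and 724 ± 26.7 with mercury (LFC 0.29, 0.86 and 1.11, adjusted p = 0.0311, 2.2e-13 and 2.23e-18). With mercury, USP14 was higher (LFC 0.26, adjusted p = 0.0105) and OTUB1 lower (LFC -0.45, adjusted p = 0.0133). In this list of 8, 2 were thus higher and 1 lower with mercury, and 1 was higher with arsenic and 1 with cadmium. Beside the shares of all genes given above, and 13.9% lower with mercury, 1 of 8 is near those lower with mercury and higher with arsenic.

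Of 12 tested upstream regulators at 24 h, 6 were higher with mercury, 4 with arsenic and 2 with cadmium, and 1 was lower with each. Of all genes, 13.9%, 6.54% and 1.56% were higher and 13.9%, 7.75% and 0.632% lower, and 1 of 12 is near the lower share with arsenic and below that with mercury. SESN2 and DDIT4, stress-induced inhibitors of the kinase mTORC1, which restrains ULK1, were the 2 higher with cadmium. SESN2 had an LFC of 2.78 with mercury (adjusted p = 5.01e-22), 2.39 with arsenic (adjusted p = 2.26e-18) and 1.37 with cadmium (adjusted p = 3.68e-08), and DDIT4 had 2.29 (adjusted p = 5.23e-16), 1.99 (adjusted p = 5.51e-13) and 1.05 (adjusted p = 0.000293). DDIT4 was called with mercury at 1.5 h (LFC 1.97, adjusted p = 2.52e-07), where no member was. TBK1, the kinase that phosphorylates OPTN and SQSTM1, was higher with arsenic (LFC 1.11, adjusted p = 0.00566) and mercury (LFC 1.01, adjusted p = 0.00705). NFE2L2, the gene of NRF2, was higher with both (LFC 0.42 and 0.91), FLCN and TFE3 were higher with mercury, and FOXO3 was the regulator lower with each metal (LFC -0.49 with mercury, -0.56 with cadmium and -0.77 with arsenic), all 4 named after their values were seen.

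**Figure D4:**
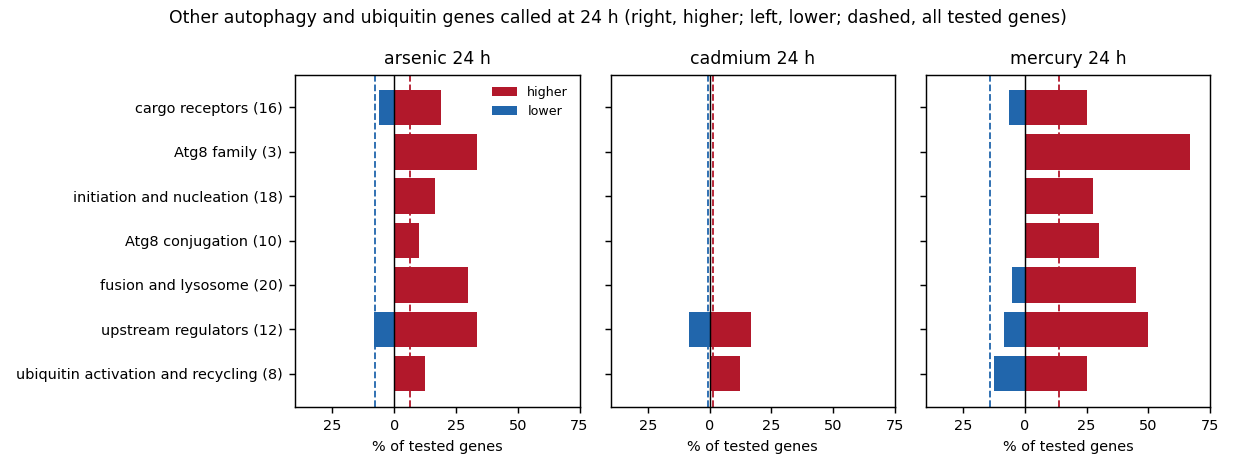
Share of the tested genes of 7 lists (y axis, number tested in parentheses) that were called higher (bars to the right) or lower (bars to the left) at 24 h, in % (x axes), for each metal, with dashed lines at the share of all tested genes. With mercury, 9 of 20 genes of fusion and the lysosome and 6 of 12 upstream regulators were higher, and with cadmium 0 of 20 and 2 of 12.

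Genes whose levels ran most like those of the members were found by Pearson correlation of log2 CPM over the 20 group means, among the 7253 genes whose mean count was 50 or more. The means share controls, times and metals, so the values only describe likeness. Closest to SQSTM1 were UCHL1 (r = 0.986), PHGDH (0.976), the first enzyme of serine synthesis, and FTH1 (0.975), the heavy chain of ferritin. Closest to GABARAPL1 were FTL (0.967), the light chain of ferritin, and NQO1 (0.966), a quinone reductase, and closest to MAP1LC3B were KYNU, ASPH and PPID (each 0.962). GABARAPL1 itself had a mean of 16 counts, below the 50 asked of the other genes, so all its r values are imprecise. For UBB it was UBE2H (0.939), a ubiquitin-conjugating enzyme, for TAX1BP1 NIBAN1 (0.959), for ULK1 SLC6A9 (0.917) and for WIPI1 SDCBP (0.873). NBR1 and OPTN had no neighbour above 0.761 and 0.766. Among the members, SQSTM1 ran with MAP1LC3B (r = 0.933), GABARAPL1 (0.918) and TAX1BP1 (0.913), less with NBR1 (0.438), and against OPTN (-0.491).

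For comparison of size, known targets of NRF2 and of the heat-shock factor were set beside the members. HMOX1, the heme oxygenase that NRF2 targets, had an LFC at 24 h of 4.79 with cadmium, 7.55 with arsenic and 7.21 with mercury, and was called from 3 h on with arsenic and cadmium and from 1.5 h on with mercury. NQO1 had 0.80 (arsenic), 0.35 (cadmium) and 1.07 (mercury) at 24 h, each called, beside 1.60, 0.64 and 2.01 for SQSTM1 in the same order. HSPA1A, an inducible heat-shock protein, had 6.32 with cadmium, 6.51 with mercury and 1.59 with arsenic at 24 h. HSPA1B, its near-identical neighbour, had 3.35 with cadmium, 4.80 with mercury and 1.60 with arsenic, and reads of the pair may be split by the counting.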

How the data were processed

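RNA of 1321N1 cells was sequenced from the 3′ end as 100-base single-end reads. The authors aligned them with STAR 2.7.9a to GRCh38 and counted reads per gene by strand with summarizeOverlaps, and deposited raw counts for 62703 genes in 60 libraries. Counts were used as deposited, and 92 spike-in rows, all at 0, were left out. Total counts of 2215276 to 4404609 per library limit the precision of low genes. With edgeR 4.0.16 in R 4.3.3, genes were kept by filterByExpr (minimum count 10, minimum total 15), which left 12341, libraries were scaled by TMM, and 1 quasi-likelihood model with a mean for each of 20 groups was fitted to all 60 libraries. Standard errors are the LFC divided by the square root of F. P values were adjusted by Benjamini-Hochberg over all tested genes of a comparison, and called means an adjusted p under 0.05.

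Alternatives were DESeq2 1.42.0, RLE scaling, no filter, a filter of 50 counts in 3 libraries, a replicate block, fits of the 6 libraries compared, a call rule with an LFC beyond 1, and fits without each library. On simulated data for mercury at 24 h with 12341 genes, 121 of 200 changed genes were called, with 6 unchanged ones. Every simulated gene had the same dispersion and the changes had preset sizes, so these counts are not error rates of the real data. The members and lists were chosen with earlier results of these data known. Named were all 9 members, up to 3 genes per list with the largest LFC among those called at 24 h of any metal, the genes most alike each member, HMOX1, NQO1, HSPA1A and HSPA1B. Others are marked as named after their values were seen. Replicates were compared for duplicate libraries, and none were found (lowest chi-square per degree of freedom 2). Protein sequences were not used here, and some further genes of the named-gene rule are not reported here.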

Additional observations from a re-analysis of the deposited data

Results flagged for a closer look

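SQSTM1 was singled out because its effect differed between 2 times by a test of the difference itself. The log2 fold change against non-treated cells was larger at 24 h than at 12 h by 0.466 with arsenic (adjusted p = 0.0363 by edgeR, from 1.13 to 1.60) and by 0.609 with mercury (adjusted p = 0.0054, from 1.40 to 2.01). The arsenic difference was lost in 6 of 12 fits that left out a library, as given above. Groups of 3 libraries were not tested for single outlying libraries.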

How the results depend on the processing

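Across 72 called member results, 726 alternative values kept direction and call, 116 kept direction and lost the call, and 0 reversed. With an LFC beyond 1 also required, members higher than non-treated numbered 4 with arsenic (11 before), 3 with cadmium (8) and 8 with mercury (19), and lower with mercury 0 (1). With only the 6 libraries compared, cadmium had 5. With no filter on low counts, 1 member differed between 24 and 12 h (2 before) and 1 non-treated call over time was left (2 before). Leaving out 1 library gave 9 to 12 higher with arsenic, 5 to 8 with cadmium and 17 to 19 with mercury, 0 to 1 lower with arsenic and 0 to 1 with mercury, 4 to 7 between arsenic and cadmium, 8 to 10 between arsenic and mercury, 10 to 13 between cadmium and mercury, 1 to 2 differences between 24 and 12 h, and 1 to 2 non-treated calls over time. The causes were not tested.

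Metal and non-treated libraries of the same time and number did not deviate together (median correlation -0.00799 over 45 pairs, from -0.278 to 0.0837). The numbers thus gave no sign of pairing between these libraries. Pairing across times or between metals was not looked at. With the replicate block, SQSTM1 at 3 h of mercury lost its call (LFC 0.32, adjusted p = 0.0511) and TAX1BP1 between cadmium and mercury at 3 h gained one (adjusted p = 0.0458), and no other member call changed.

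Over all genes, few-call comparisons depended most on the setting. Arsenic at 1.5 h had 9 calls, and 61 by DESeq2, 136 with no filter and 3 with 6 libraries. Cadmium at 1.5 h had 0 calls (991 genes at an unadjusted p under 0.05), and 3, 66 and 109. Arsenic at 3 h had 17, and 41, 50 and 10 in the same order, and cadmium at 3 h 25, and 50, 92 and 47. Cadmium at 24 h had 270 calls, and 74 with 6 libraries. By DESeq2 and with no filter, arsenic against cadmium had 1 and 30 at 1.5 h (0 before, 835 genes at an unadjusted p under 0.05) and 31 and 49 at 3 h (17), and non-treated cells at 6 h 118 and 134 (60). With no filter, cadmium against mercury at 1.5 h had 147 (81). By DESeq2, the differences between 24 and 12 h had 358 with arsenic (194), 112 with cadmium (47) and 141 with mercury (77). Depth limits GABARAPL1 most, with at most 3 counts in non-treated libraries at 1.5 and 3 h.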
